A study of Dendrobaena veneta with 18 samples.

Results

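In the earthworm Dendrobaena veneta, 8 assembled transcripts stood higher in the cerebral ganglion of worms exposed to carbamazepine than in that of controls. For each of the 8, every exposed ganglion library, at both doses, was above every control ganglion library. This ganglion lies over the pharynx, at the head end of the nerve cord, and serves earthworms as a brain. Carbamazepine is a drug against epilepsy that acts on sodium channels of nerve cells, and it reaches soil through wastewater and sludge. The transcripts were chosen from the ganglion counts themselves. A feature, that is an assembled gene, entered the list if its lowest value in the 6 exposed ganglia was at least 3 CPM (the count divided by the library total and scaled to a fixed total, 1000000) and at least 2 times the highest of the 3 control ganglia, with the means of the doses within 3-fold of each other. The list was to hold the top 200, and 8 of 243619 features met the rule, so all 8 are described. Ganglion differences between exposed and control worms are therefore given as a description and carry no test.

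The study measured poly(A)-selected RNA by Illumina sequencing in gut and ganglion of adult worms. The worms were kept for 28 days in the dark at 15 °C, without added food, in topsoil spiked with 0.6 mg/kg carbamazepine (low dose), with 10 mg/kg (high dose) or, for the controls, with methanol alone. The labels do not say whether the drug soils also received methanol, or whether a library is 1 animal or a pool. P-values therefore cover no more than the spread among these libraries, which may be technical in part. Of 18 labelled samples 17 have values, 3 in each ganglion group, 3 in each exposed gut group and 2 in control gut, where replicate 1 was not analysed here. The reads were assembled de novo, and the files give identifiers but no gene name, sequence or position. No function can be assigned to the 8 features, and the labelled tissues could not be checked against marker genes.

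An identifier of the Trinity form names first a cluster of reads (DN), then a component of that cluster (c), then a gene within the component (g). A de novo assembly from outbred animals can hold alleles, splice forms or fragments of 1 gene as separate features, so a feature is not always a whole gene. In bulk tissue, fewer cells of a type and less RNA per cell cannot be told apart.

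Library totals ran from 12536754 to 18285270 counts, so 3 counts, the limit that a count of 0 allows, stood for 0.164 to 0.239 CPM. Libraries were matched by which of 2740 on/off features they held, and 8 gut-to-ganglion pairs had correlations of at least 0.677. This sorted the 17 libraries into 9 sources, each of which may be 1 animal or 1 pool. All 6 sources with gut libraries also gave ganglion libraries that the rule used, so the gut values are another tissue and not other animals. Gut low dose libraries 1 and 3 differed by a mean chi-square of 2.32 per feature, where counting noise alone gives about 1, against 17.6 to 132 for the other pairs within a group, and were averaged to 1 sample. Gut high dose libraries 1 and 3 also matched as 1 source, with a correlation of 0.827, but were kept as separate samples, so n = 3 at the high dose in gut stands for 2 sources. With them averaged as well, edgeR's calls over all features fell from 12, 3 and 8 at the low dose, the high dose and both doses to 0, 0 and 0. Ganglion high dose 3 resembled ganglion control 3 with a correlation of 0.477, and gut control 3, matched to the same source as that control, with 0.404. These were the highest among unmatched pairs, and the next was 0.212. The cause of this resemblance was not tested.

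A list of 8 was no longer than its opposite. Of 13593 features with at least 3 CPM in every exposed ganglion, 8 met the rule (0.0589%). With the rule turned round, 8 of 15728 features with at least 3 CPM in every control ganglion were lower in all exposed ganglia (0.0509%). The length of the list rested on 1 library above all. Without ganglion high dose 1, 309 features met the rule, and 11 met it turned round. Without 1 of the 3 control ganglia, 26 to 38 met it, without ganglion high dose 3 there were 23, and without any 1 of the other 4 exposed ganglia 10 or 11. All 8 features stayed in the list in each of these cases except without ganglion high dose 3, where DN89192_c0_g1 left it because the dose means were then over 3-fold apart. Just inside the limits, DN96216_c0_g2 stood at 2.02 times the highest control, and DN89192_c0_g1 had a lowest exposed value of 3.23 CPM. Just outside them, DN85433_c2_g1 reached 1.95 times the highest control, and DN86364_c1_g1 had a lowest exposed value of 2.91 CPM. DN95196_c2_g2 met both thresholds but its high dose mean was 4.51 times its low dose mean.

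**Figure D1:**
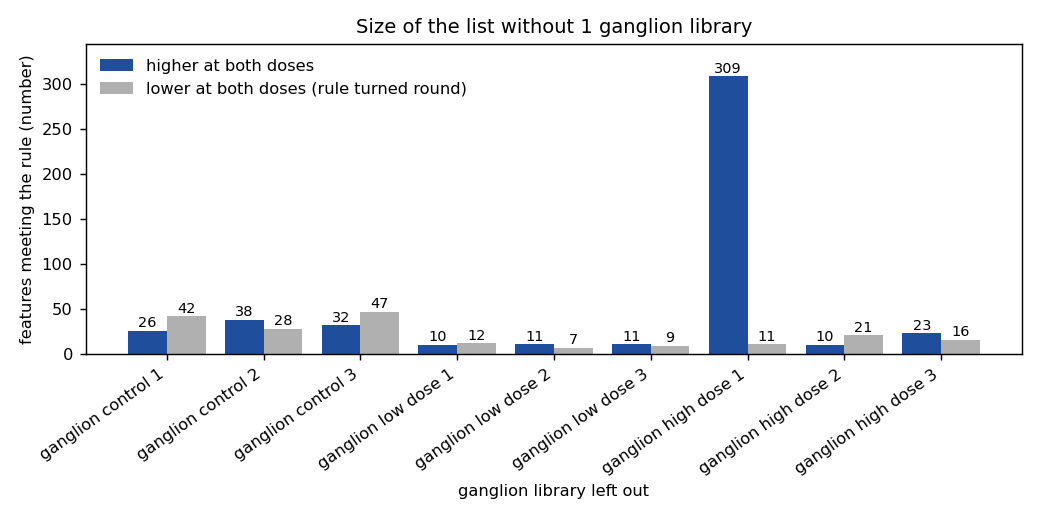
Number of features meeting the rule (vertical axis) when the ganglion library on the horizontal axis is left out, for features higher at both doses (blue) and, with the rule turned round, lower at both doses (grey). The list grows from 8 to 309 features without ganglion high dose 1.

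In gut, which the rule did not use, 5 of the 8 features stood higher in all exposed libraries than in both control libraries, and none stood lower in all of them. The 5 were DN97191_c2_g2, DN80356_c6_g5, DN102920_c2_g1, DN92666_c1_g7 and DN89192_c0_g1. Among the 13593 features at 3 CPM or more in all exposed ganglia, taken with no filter on gut, 5.89% were higher in this way and 0.853% lower. All gut libraries matched ganglia that the rule held low (control) or high (exposed), while the 13593 had no limit on control ganglia. Counts of members above control in gut, here and by the tests below, therefore give no support. For DN80356_c6_g5 and DN102920_c2_g1 the lowest exposed gut library held 2 counts and 1 count, which is within what a control count of 0 allows. With over 3 counts required in every exposed gut library, 3 of the 8 remained, DN97191_c2_g2, DN92666_c1_g7 and DN89192_c0_g1, beside 5.62% of the 13593. Taking the doses singly, 6 of the 8 were above both controls at the low dose, where 43.3% of the 13593 were, and 7 of the 8 at the high dose, where 8.23% were. With TMM scaling of the library totals the members above control numbered 6 for both doses, 6 for the low dose and 8 for the high dose, beside 5.66%, 16.3% and 14.2% of the 13593. By edgeR's quasi-likelihood test no member passed an adjusted p of 0.05 in gut at the low dose, at the high dose or over both doses, while 0.0120%, 0.00599% and 0.00599% of the 50071 features tested were called higher. The test held 6 of the 8. A feature seen only in exposed gut passes the filter through its high group, so counts over these 6 give no support. At an unadjusted p under 0.05, 4 of the 6 were higher in each comparison, beside 3.77%, 4.18% and 3.39% of all features tested. DESeq2, run on the same samples, called 2 members higher in each comparison, DN97191_c2_g2 and DN89192_c0_g1, beside 0.220%, 0.300% and 0.183% of all features with a count. It gave no adjusted p to DN80356_c6_g5, DN102920_c2_g1 and DN90610_c1_g1. Features without an adjusted p count as not called in these shares.

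**Figure D2:**
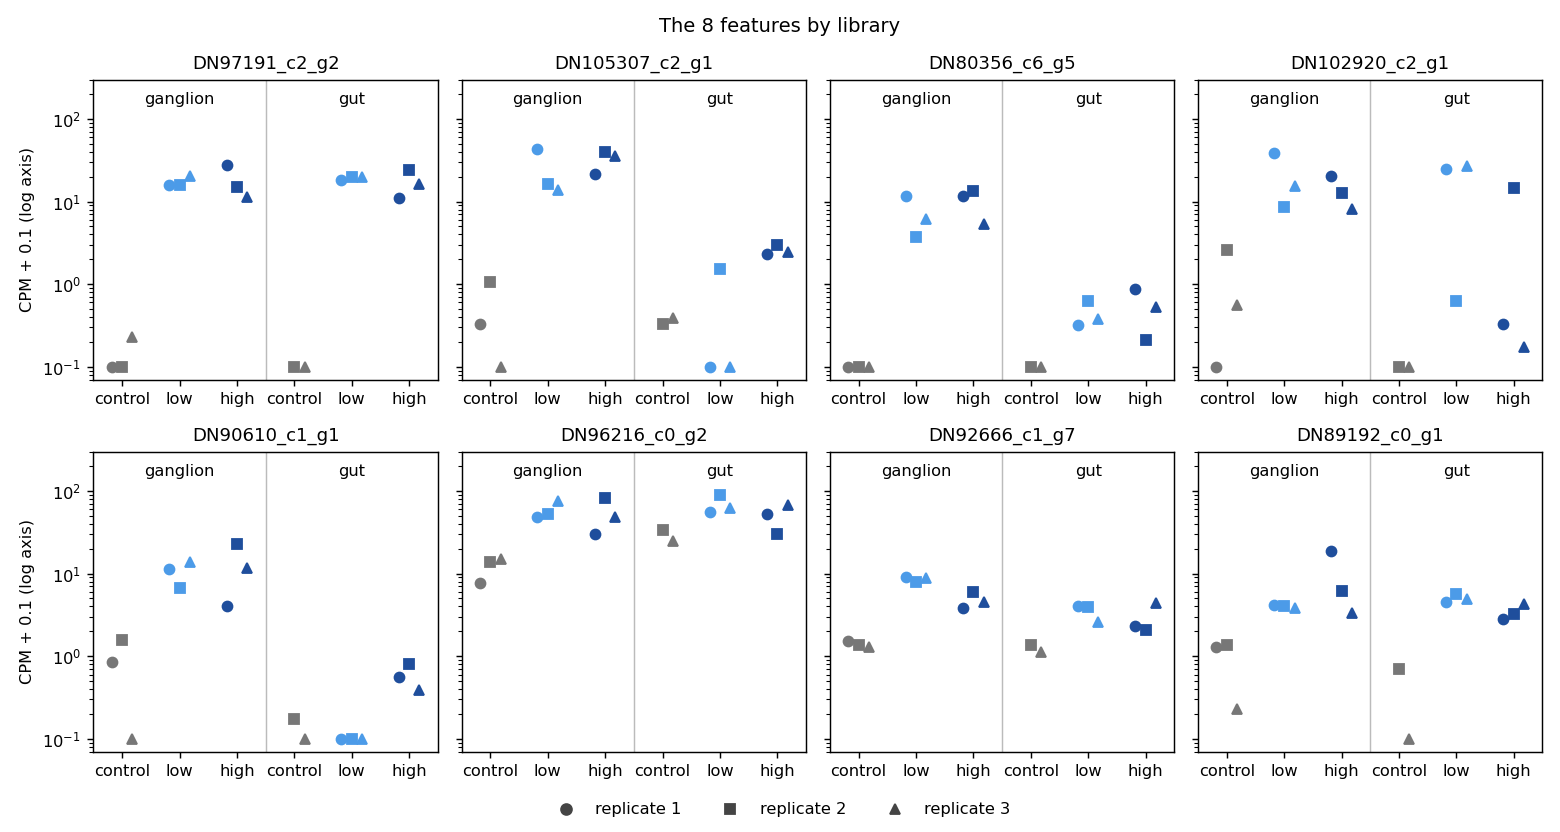
CPM plus 0.1 on a log axis for each of the 8 features in every library, by tissue and dose, with replicates as circles, squares and triangles. In the ganglion the groups do not overlap by choice of the features; in gut, DN97191_c2_g2 follows the same pattern, while DN105307_c2_g1, DN80356_c6_g5 and DN90610_c1_g1 are under 3 CPM in every library.

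The features fall, by their gut values, into 4 present in exposed gut and ganglion alike, 3 found mainly in exposed ganglia, and 1 other. That 1, DN102920_c2_g1, ran from 0.0722 to 26.8 CPM among exposed gut libraries. This division was made after the values were seen.

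DN97191_c2_g2 ranked first and was close to absent from every control library of either tissue. It had 0, 0 and 2 counts in control ganglia 1 to 3, the last equal to 0.131 CPM. In low dose ganglia it stood at 15.8, 15.9 and 20.5 CPM, and in high dose ganglia at 27.4, 14.7 and 11.4 CPM. The means were 17.4 ± 2.73 CPM (SD, n = 3) at the low and 17.8 ± 8.48 CPM (n = 3) at the high dose, so the doses differed by less than the spread within the high dose group. Over all 3 libraries of a group, 723 and 731 counts against 2 gave ratios of 363.9 (95% exact counting interval 100.4 to 3011) and 377 (104 to 3115). Such intervals, and limits from a count of 0, cover counting error only.

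The gut repeated this pattern for DN97191_c2_g2. Both control guts had 0 counts. Low dose gut libraries 1, 2 and 3 held 18.4, 19.9 and 19.6 CPM, and high dose gut libraries 11.0, 23.9 and 16.2 CPM. Against a floor of 3 counts per control library, low dose gut was at least 87.5-fold and high dose gut at least 76.8-fold higher. Every exposed gut library was above both controls. In edgeR's quasi-likelihood test the unadjusted p was 1.3e-04 at the low and 1.0e-04 at the high dose, rank 37 and rank 34 of 50071 features, and the adjusted p was 0.182 and 0.142. The fit assigned the feature a log2 fold of 10.80 (SE 1.17) and 11.17 (SE 1.15), values that depend on the prior count because the controls are at 0. Its exposed ganglia averaged 0.980 times its exposed guts in CPM, beside a median of 1.51 over the 13593 features at 3 CPM or more in all exposed ganglia. The adjusted p ran from 6.5e-28 to 0.542 over the alternatives at the low dose and from 6.7e-31 to 0.520 at the high dose. Calls at both doses came with DESeq2, without a filter, with gut low dose 1 and 3 as separate samples and with limma on log2(FPKM + 0.1). Without gut high dose 2 the adjusted p was 0.0396 at the low and 0.0613 at the high dose, and with gut high dose 1 and 3 averaged it was 0.480 and 0.488.

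DN89192_c0_g1, ranked last, was higher in exposed worms in both tissues as well. Control ganglia stood at 1.20, 1.25 and 0.131 CPM, low dose ganglia at 4.03, 3.91 and 3.71 CPM, and high dose ganglia at 18.6, 6.07 and 3.23 CPM. Ganglion high dose 1 stood far above all other ganglia, and the low dose ganglia lay close together. The ratio of high to low dose means was 2.39, and 1.20 without that library. In gut the controls had 0.601 and 0 CPM, the low dose libraries 4.47, 5.53 and 4.84 CPM, and the high dose libraries 2.70, 3.17 and 4.18 CPM. Exposed gut did not overlap control gut. The mean in gut was 0.300 ± 0.425 CPM (n = 2) in controls, 5.09 ± 0.622 (n = 2) at the low dose and 3.35 ± 0.759 (n = 3) at the high dose. The log2 fold was 3.76 (SE 1.09) and 3.61 (SE 1.05), for which edgeR's quasi-likelihood test gave adjusted p-values of 0.570 and 0.537. The folds rested on which control was present, at 8.87 and 8.73 without gut control 2 and at 2.83 and 2.71 without gut control 3, which has 0 counts. With gut control 2 left out the only control is at 0 counts, so 8.87 and 8.73 depend on the prior count.

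DN92666_c1_g7 varied little within the control and low dose ganglia. It stood at 1.43, 1.25 and 1.18 CPM in control ganglia, at 8.92, 7.82 and 8.73 CPM in low dose ganglia and at 3.71, 5.85 and 4.40 CPM in high dose ganglia. The low dose ganglia were above all high dose ganglia, with a high over low ratio of the means of 0.548. Means were 6.60 times control at the low and 3.61 times control at the high dose. In gut the controls had 1.28 and 1.02 CPM, the low dose libraries 3.97, 3.86 and 2.52 CPM, and the high dose libraries 2.24, 1.97 and 4.26 CPM. No exposed gut overlapped a control, but both doses overlapped each other. The gut log2 fold was 1.20 (SE 0.48, adjusted p = 0.621) at the low and 1.26 (SE 0.45, adjusted p = 0.600) at the high dose by edgeR's quasi-likelihood test.

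DN96216_c0_g2 was the only one of the 8 above 3 CPM in any control ganglion. Its control ganglia stood at 7.52, 13.6 and 14.9 CPM, low dose ganglia at 47.9, 52.6 and 76.0 CPM, and high dose ganglia at 30.1, 82.5 and 48.2 CPM. The means were 4.89 and 4.46 times control. Control gut held more of it than control ganglion, at 33.9 and 24.9 CPM. Low dose gut reached 55.8, 89.0 and 62.0 CPM, above both controls. High dose gut stood at 52.0, 30.5 and 67.6 CPM, and its library 2 fell between the controls. With TMM scaling, which corrects for the makeup of each library, the lowest exposed gut value became 46.7 CPM and the highest control 33.9, so that the overlap depended on the scaling. The gut log2 fold was 0.91 (SE 0.30, adjusted p = 0.591) at the low and 0.73 (SE 0.28, adjusted p = 0.620) at the high dose by edgeR's quasi-likelihood test.

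**Figure D3:**
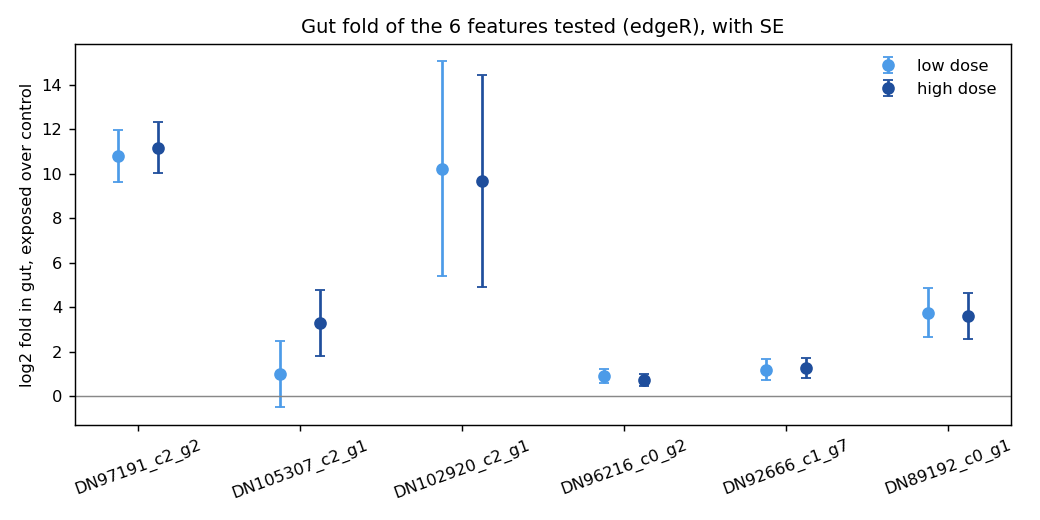
Log2 fold in gut of low dose (light) and high dose (dark) over control for the 6 features that passed the filter on low counts, from edgeR, with the SE as bars. All 12 folds are above 0 and none has an adjusted p under 0.05; those of DN97191_c2_g2 and DN102920_c2_g1 depend on the prior count because control gut is at 0, and those of DN89192_c0_g1 rest on gut control 2, as gut control 3 is at 0.

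DN105307_c2_g1, ranked second, stood higher in ganglion than in gut in exposed worms. In controls both tissues were low, at means of 0.395 CPM in ganglion and 0.258 CPM in gut. Control ganglia had 0.226, 0.958 and 0 CPM, low dose ganglia 43.0, 16.1 and 13.7 CPM, and high dose ganglia 21.7, 39.6 and 35.3 CPM. The means were 0.395 ± 0.501, 24.3 ± 16.2 and 32.2 ± 9.34 CPM (n = 3 each), 61.5 and 81.6 times control. Exposed ganglia averaged 15.8 times exposed gut. In gut, the controls stood at 0.225 and 0.291 CPM. Low dose libraries 1 and 3 had 0 counts and library 2 had 1.44 CPM, while the high dose libraries held 2.24, 2.90 and 2.38 CPM. Only the high dose was above control in every library. Its log2 fold there was 3.29 (SE 1.48, adjusted p = 0.661), and 0.998 (SE 1.502, adjusted p = 0.931) at the low dose, by edgeR's quasi-likelihood test. The low dose fold turned to -5.04 without gut low dose 2, a value that depends on the prior count because libraries 1 and 3 are at 0.

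DN80356_c6_g5 was the only feature with no count in any control library. Low dose ganglia held 192, 45 and 79 counts, or 11.7, 3.59 and 6.10 CPM, and high dose ganglia 158, 179 and 71 counts, or 11.5, 13.3 and 5.21 CPM. Against the floor of 3 counts per library these means were at least 33.3-fold and 46.6-fold higher than control. Exposed gut libraries held 2 to 10 counts each, at most 0.771 CPM, against 0 in both controls, too few for the test's filter.

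DN90610_c1_g1 had the strongest preference for the ganglion among the 8 in exposed worms. Its exposed ganglia averaged 39.6 times exposed gut. Control ganglia stood at 0.752, 1.47 and 0 CPM, low dose ganglia at 11.2, 6.54 and 13.7 CPM and high dose ganglia at 4.00, 22.6 and 11.5 CPM. The means were 14.1 and 17.1 times control. In gut the controls had 1 and 0 counts, all 3 low dose libraries 0, and the high dose libraries 6, 13 and 4 counts. The 23 counts at the high dose gave a ratio to control of 13.8 (95% exact counting interval 2.24 to 568). This feature too did not pass the test's filter.

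A ganglion level at least 10 times that of gut in exposed worms was found for 3 of the 8, these last 3, beside 9.06% of the 13593 features at 3 CPM or more in all exposed ganglia. The ganglion values of that ratio were used by the rule. Control gut held no count at all for 3 of the 8, beside 1.79% of those features. Both control guts were matched to control ganglia that the rule held low, while the 13593 had no such limit. This count therefore gives no support.

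DN102920_c2_g1 differed between sources in the gut. Its control ganglia stood at 0, 2.51 and 0.459 CPM, low dose ganglia at 38.9, 8.61 and 15.3 CPM, and high dose ganglia at 20.4, 12.6 and 7.92 CPM. Both control guts had 0 counts. Low dose gut held 24.8, 0.530 and 26.8 CPM in libraries 1, 2 and 3, and high dose gut 0.231, 14.5 and 0.0722 CPM. By the matched libraries, the low dose source with 38.9 CPM in the ganglion had a mean of 25.8 CPM in gut, and the one with 8.61 had 0.530. The high dose source with 20.4 CPM in the ganglion had 14.5 in gut, and the one with 12.6 had 0.152. In each dose, then, the source with more in the ganglion had far more in gut, over 2 sources a dose. The gut log2 fold was 10.22 (SE 4.82, adjusted p = 0.660) at the low and 9.67 (SE 4.76, adjusted p = 0.679) at the high dose by edgeR's quasi-likelihood test, with controls at 0. Of the features used to match libraries to sources, this one, DN97191_c2_g2 and DN105307_c2_g1 are 3 of 2740.

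Per length, the order of the features was another. FPKM, the authors' value per length and sequencing depth, averaged 33.7 ± 30.6 (SD over the 6 exposed ganglia) for DN89192_c0_g1, 24.998 ± 8.71 for DN96216_c0_g2, 21.2 ± 10.2 for DN80356_c6_g5 and 16.8 ± 7.49 for DN105307_c2_g1. It averaged 10.6 ± 3.39 for DN97191_c2_g2, 8.79 ± 2.98 for DN92666_c1_g7, 4.88 ± 3.25 for DN102920_c2_g1 and 3.67 ± 2.05 for DN90610_c1_g1. The ranges of neighbours in this order overlapped. Lengths implied by count over FPKM ran from 193 bases for DN89192_c0_g1 to 3540 for DN102920_c2_g1 and 3161 for DN90610_c1_g1. Their median was 1673 bases, beside 1820 (quartiles 1071 and 2941) over 13592 features at 3 CPM or more in all exposed ganglia.

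The 8 features did not rise and fall together among exposed ganglia. Over the 28 pairs, Spearman's rho across the 6 exposed ganglia had a median of 0.11 and ran from -0.60, for DN97191_c2_g2 with DN105307_c2_g1, to 0.83, for DN90610_c1_g1 with DN96216_c0_g2. These are descriptions over 6 libraries that share depth and dose. Ganglion high dose 1 was the lowest exposed library for 3 features and the highest for 2, and ganglion high dose 3 was the lowest for 3. The summed level of the 8 ran from 11.1 to 21.1 CPM in control and from 115 to 197 CPM in exposed ganglia.

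The 8 features belong to 8 different components, and other features of the same components repeat the pattern in 2 cases. DN80356_c6_g8 had 0 counts in every control library and 2.70 to 15.5 CPM in exposed ganglia, just short of the rule's 3 CPM. Across the 17 libraries it followed DN80356_c6_g5 with a Pearson correlation of 0.94. DN89192_c0_g2 stood at 0 to 0.443 CPM in control and 1.10 to 8.08 CPM in exposed ganglia, and DN89192_c0_g3 at 0.885 to 1.84 and 2.79 to 17.3 CPM. Their correlations with DN89192_c0_g1 were 0.90 and 0.96. In exposed gut DN89192_c0_g2 stood at 1.62 to 3.61 CPM, against 0 and 0.146 in control gut. Features of 1 component can share reads, so the authors' counting may have divided 1 transcript among them, and these are not independent cases. Summed over all features of the component, 6 of the 8 kept a lowest exposed ganglion at 2 times the highest control or more. The sum did not for DN80356_c6, with a ratio of 0.994, because other features of that component reached 4.59 CPM in ganglion control 1, nor for DN92666_c1, with a ratio of 1.25.

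The opposite pattern was seen without overlap within 1 read cluster. DN105307_c1_g1, in another component of the cluster that holds DN105307_c2_g1, stood at 8.87, 5.60 and 8.46 CPM in control ganglia, at 3.36, 0.798 and 0.232 CPM in low dose ganglia and at 1.53, 3.70 and 3.23 CPM in high dose ganglia. The exposed range lay wholly below the control range, while DN105307_c2_g1 lay wholly above its own. This was not so in gut, where DN105307_c1_g1 had 0 and 0.655 CPM in the controls and 0.0758 CPM in low dose library 2. It had 3.53 and 2.73 CPM in low dose libraries 1 and 3, above both controls, where DN105307_c2_g1 had 0, and 0 in all 3 high dose libraries, where DN105307_c2_g1 had 2.24 to 2.90 CPM. In the read cluster of DN97191_c2_g2, DN97191_c4_g1 had a lower mean in exposed than in control ganglia, at 5.48 against 9.33 CPM. Its ranges overlapped, at 2.31 to 7.11 CPM in exposed and 6.36 to 12.1 CPM in control ganglia. Both DN105307_c1_g1 and DN97191_c4_g1 were chosen after their values were seen and were not tested.

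**Figure D4:**
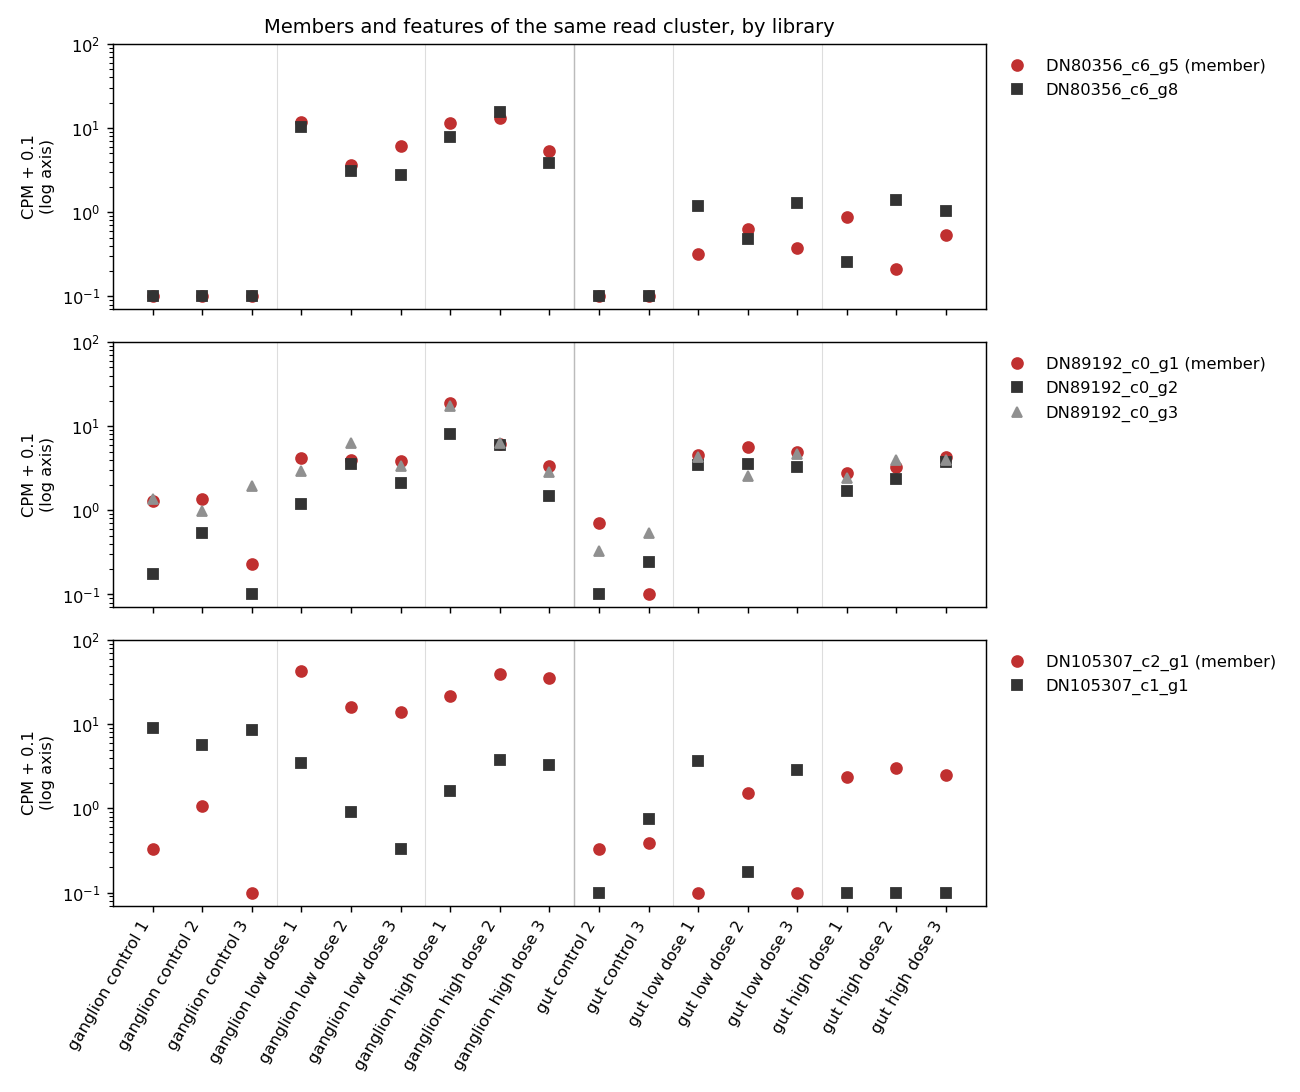
CPM plus 0.1 on a log axis by library for 3 of the 8 features (red) and other features of the same component or, in the bottom panel, of another component of the read cluster (dark and light grey). The upper panels move with their red feature, and DN105307_c1_g1 is lower in all exposed ganglia, at most 3.70 CPM, than in any control ganglion.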

How the data were processed

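Per the labels' protocols, poly(A)-selected RNA was sequenced on an Illumina HiSeq instrument. CASAVA and DESeq2 appear, without versions, in the submitters' processing notes. Neither assembler settings nor the counting program are stated in these sources. Deposited by the authors were expected counts, estimated per assembled gene and not scaled, and FPKM values, scaled to length and library, for 17 libraries.

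The members and lists were chosen with earlier results of these data known. CPM used column sums. Gut was tested with edgeR 4.0.16 (limma 3.58.1, R 4.3.3) by its quasi-likelihood F test, two-sided, on counts rounded to whole numbers with TMM scaling, the package's filter (minimum count 10, minimum total 15) and 1 coefficient per group. Gut low dose libraries 1 and 3 were averaged, leaving 7 samples and 4 residual degrees of freedom. P-values were adjusted over all 50071 features tested (Benjamini-Hochberg). The biological coefficient of variation was 64.1%. Alternatives were DESeq2 1.42.0, RLE scaling, no filter, other groupings of libraries, a replicate block, limma on log2(FPKM + 1) and log2(FPKM + 0.1) for features with an FPKM of 1 or more in at least 2 samples, and each sample left out. Libraries were matched to sources by presence (5 counts or more) over features with at least 30 counts in 1 library and 0 in another, in each tissue, and correlations over 0.6 were taken as 1 source. Identifiers are given without their TRINITY prefix. The naming rule took features by rank, level, length, dose ratio and gut p, and all 8 members are named.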

Additional observations from a re-analysis of the deposited data

How the results depend on the processing

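The rule gave 8 features in CPM and 11 with TMM scaling, all 8 members among them, and 9 with no limit on the dose means. It gave 26 with FPKM (6 of the members), 29 with a minimum of 1 CPM, 3 with a minimum of 10 CPM and 4 with a ratio of 3. Leaving out 1 ganglion library gave 10 to 309, and leaving out ganglion control 3 and high dose 3 together, chosen after the data were seen, gave 53 with 7 of the members. Fewer libraries give the rule fewer values to meet. The 5 members above control in exposed gut were 5 or 6 under all alternatives, including libraries of 1 source averaged, which was added after the data were seen.

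The count of gut features called by edgeR was 12 at the low dose, 3 at the high dose and 8 over both doses (3944, 3883 and 3717 at an unadjusted p under 0.05). It was 3363, 3228 and 3422 with no filter, 46, 49 and 42 with gut low dose 1 and 3 separate, and 668, 784 and 565 by DESeq2. With limma it was 361, 62 and 108 on log2(FPKM + 1) and 42, 76 and 53 on log2(FPKM + 0.1). Over both doses RLE scaling gave 5. With gut high dose 1 and 3 averaged as well it was 0, 0 and 0, and with the third gut group left out of the fit 0 and 0. With the replicate block it was 0, 0 and 0, and the fit without the block on the same libraries is the one with 46, 49 and 42. The numbers do not pair the gut libraries, since same-numbered libraries had correlations of deviations from -0.0123 to 0.0585 over 7 pairs, and matched libraries carry unequal numbers. Leaving out 1 gut sample gave 0 to 23 at the low dose, 0 at the high dose and 0 to 23 over both, with 23 without gut high dose 2. The cause of these changes was not tested.

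Members called higher in gut, 0 in the main analysis, numbered 3 with no filter (DN97191_c2_g2, DN102920_c2_g1, DN89192_c0_g1), 2 by DESeq2 and 1, DN97191_c2_g2, with gut low dose 1 and 3 separate and with limma on log2(FPKM + 0.1). At the low dose and over both doses this 1 member was also called with limma on log2(FPKM + 1) and without gut high dose 2. Of 276 alternative values for the 6 members tested, 248 kept direction and call, or direction alone for DN102920_c2_g1 by DESeq2, which gave it no p-value. Another 25 became called and 3 reversed. All 3 were of DN105307_c2_g1, with a log2 fold at the low dose of -0.32 with the replicate block and -5.04 without gut low dose 2, and of -0.88 over both doses without gut low dose 2. With 1 library left out in turn these folds ran from -5.04 to 1.41 and from -0.88 to 2.56, and without the averaged gut low dose 1 and 3 they were 1.98 and 2.63. Without gut low dose 2 the low dose libraries left are at 0 counts, so -5.04 and -0.88 depend on the prior count. Depth limits DN80356_c6_g5 and DN90610_c1_g1 in gut, where no library exceeded 13 counts.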

Other observations

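Leaving out ganglion high dose 1 added 301 features to the 8. In these 301, that library was at or below the highest control ganglion for 268 and under 3 CPM for 266. Its level was a median of 0.0185 times the mean of the other 5 exposed ganglia, beside 0.842 over all features at 3 CPM or more in those 5. The other 5 exposed ganglia stood at a median of 16.2 times the control mean, and ganglion high dose 1 at 0.333 times. In gut, 11 of the 301 (3.65%) were higher in every exposed library than in both controls, beside 5.56% of the 15066 features at 3 CPM or more in the other 5 exposed ganglia. Gut high dose 2, matched to the same source as ganglion high dose 1, stood at a median of 0.452 times the mean of gut high dose 1 and 3 in these features. The same value over all features was not computed. TMM factors were 0.652 for gut high dose 2 and 0.913 and 1.03 for gut high dose 1 and 3. A lower factor goes with lower CPM for most features of a library, so 0.452 is not particular to the 301. The 301 were found by leaving out a library after the values were seen, and no test was made on them. They met the rule only without ganglion high dose 1, so its low level in most of them follows from the choice.

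With the thresholds of the ganglion rule applied to gut alone, 50 of 16194 features at 3 CPM or more in every exposed gut library (0.309%) were at least 2 times the highest control gut, from 2 controls. DN97191_c2_g2 was the 1 member among them.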
